A study of Mus musculus with 8 samples.

Results

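The microglia and complement genes described here were 10 genes of the resident immune cells of the brain: the receptors Csf1r, Cx3cr1, P2ry12 and Trem2, the surface protein Tmem119, the 3 chains of complement C1q (C1qa, C1qb and C1qc), the integrin chain Itgam and the calcium-binding protein Aif1. The mice were C57BL/6J males born to dams injected in pregnancy with ethanol or with saline alone, and their whole brains were taken in adulthood, on postnatal day 70. Each gene was represented by the probe set annotated with that symbol and no other, and where several existed the one with the highest mean over the 8 arrays was to be used, but each gene had exactly 1. The 10 genes were thus 10 of 19938 genes with such a probe set, among 23410 probe sets that carried a gene symbol. Affymetrix Mouse Gene 1.0 ST arrays, which read transcripts with probes spread along the whole gene, gave 1 value per probe set on the log2 scale.

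In the early exposure groups, dams received 2 injections of ethanol at 2.5 g/kg on each of gestational days 8 and 11, or matching saline. In the late exposure groups, the same injections fell on gestational days 14 and 16. Each of the 4 groups had 2 arrays. The RNA on an array was an equal pool of 3 males from different litters, so that an array averages over mice and groups have n = 2. The saline dams were injected too, and no uninjected mice enter the comparison. Array medians ran from 6.74 to 6.84 early and from 7.21 to 7.30 late, and ethanol was therefore set against saline only inside a timing. A level was set only against a background, the 95th percentile over 1210 probe sets for odorant (Olfr) and vomeronasal receptors, which averaged 6.49 early and 7.46 late.

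Microglia are macrophages that settle in the brain before birth and renew themselves there. They survive on signals through Csf1r, read neurons through receptors such as Cx3cr1 and P2ry12, and clear debris, lipids and synapses with the help of Trem2 and of complement. In the classical complement pathway C1q binds a target and starts a protease cascade that deposits C3 fragments, which phagocytes recognise through complement receptor 3, whose chains are Itgam and Itgb2. In the healthy adult brain microglia are the main source of C1q. Ethanol is known to activate microglia of the developing brain. The study set ethanol against saline offspring to find lasting differences in adult brain transcripts, and the same comparison is given here for these genes.

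Against the background level, 8 of the 10 genes were above it in both timings, each on 4 of 4 arrays. Itgam and Aif1 were above it on 0 of 4 arrays in either timing, and their values are given below as readings at background. The label of a microglial set therefore rested on Csf1r, Cx3cr1, P2ry12, Tmem119, Trem2 and the C1q chains. In whole brain RNA, fewer cells of a type and less RNA per cell cannot be told apart.

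The 3 C1q genes lie next to each other on chromosome 4 in the order C1qb, C1qc and C1qa. Spi1, also called PU.1, is the factor that specifies macrophages, and it binds purine-rich sites such as GAGGAA. Other forms of the site were not searched. RefSeq promoter windows (assembly GRCm38.p6), taken as the 250 bases before the transcript start, were at hand for 7 of the 10 genes. The letters GAGGAA, or TTCCTC for the same site on the other strand, occurred in 5 of these 7 windows, against 23.3% of 32851 mouse promoter windows of that length. Windows of Aif1 and Trem2 held 1 match each, those of C1qb and C1qc also 1 each, that of Itgam held 2, and those of Cx3cr1 and P2ry12 held 0. The letters TATAAA, or TTTATA on the other strand, were in 0 of the 7 windows, against 12.4% of all windows. A match describes the sequence alone, since no binding was measured. The windows of 2 neighbouring C1q genes and of Trem2, the gene with the largest ethanol difference below, are shown as examples. The windows read 5′ to 3′ toward the gene, with the matches in capitals.
C1qb, chr4:136886201-136886450, minus strand, match starting at -30: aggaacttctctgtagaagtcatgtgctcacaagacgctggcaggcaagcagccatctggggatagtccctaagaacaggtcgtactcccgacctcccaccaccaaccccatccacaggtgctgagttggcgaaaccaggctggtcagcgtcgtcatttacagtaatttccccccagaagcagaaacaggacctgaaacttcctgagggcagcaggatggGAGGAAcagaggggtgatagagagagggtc
C1qc, chr4:136892915-136893164, minus strand, match on the other strand starting at -193: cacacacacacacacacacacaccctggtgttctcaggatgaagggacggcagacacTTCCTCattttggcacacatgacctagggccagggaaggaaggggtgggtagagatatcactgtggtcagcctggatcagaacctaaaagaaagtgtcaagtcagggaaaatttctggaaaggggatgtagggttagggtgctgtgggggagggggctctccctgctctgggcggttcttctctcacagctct
Trem2, chr17:48346151-48346400, plus strand, match on the other strand starting at -40: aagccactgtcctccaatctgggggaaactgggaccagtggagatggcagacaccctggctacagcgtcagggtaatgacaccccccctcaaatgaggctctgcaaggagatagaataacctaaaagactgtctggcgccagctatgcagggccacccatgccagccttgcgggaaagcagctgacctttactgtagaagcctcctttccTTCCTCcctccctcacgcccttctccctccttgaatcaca
In C1qb the match lay close to the transcript start, in Trem2 as well, and in C1qc far upstream of it.

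None of the 10 genes passed the test of ethanol against saline after adjustment in either timing. Each gene's difference is the mean of the ethanol arrays minus the mean of the saline arrays, with a 95% confidence interval from a limma fit over all 8 arrays and p-values adjusted by the Benjamini-Hochberg method over the 23410 probe sets. In limma, 0% of all probe sets passed an adjusted p of 0.05 in the early comparison and 0% in the late one, and the adjusted p of each of the 10 genes was 1 in both. Without adjustment, 0 of the 10 genes had a p under 0.05 after early exposure, where 1.71% of all probe sets did (401 of 23410), and 1 did after late exposure, Trem2, where 2.49% of all did (583). At the thresholds the study's methods used for expression, an unadjusted p under 0.05 together with a change of 1.2-fold, 0 of the 10 genes passed in either timing, against 0.923% of all probe sets early and 1.16% late. A test without moderated variances also called 0 probe sets after adjustment, with 797 early and 740 late under an unadjusted p of 0.05, and 0 of the 10 genes were among those in either timing.

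**Figure D1:**
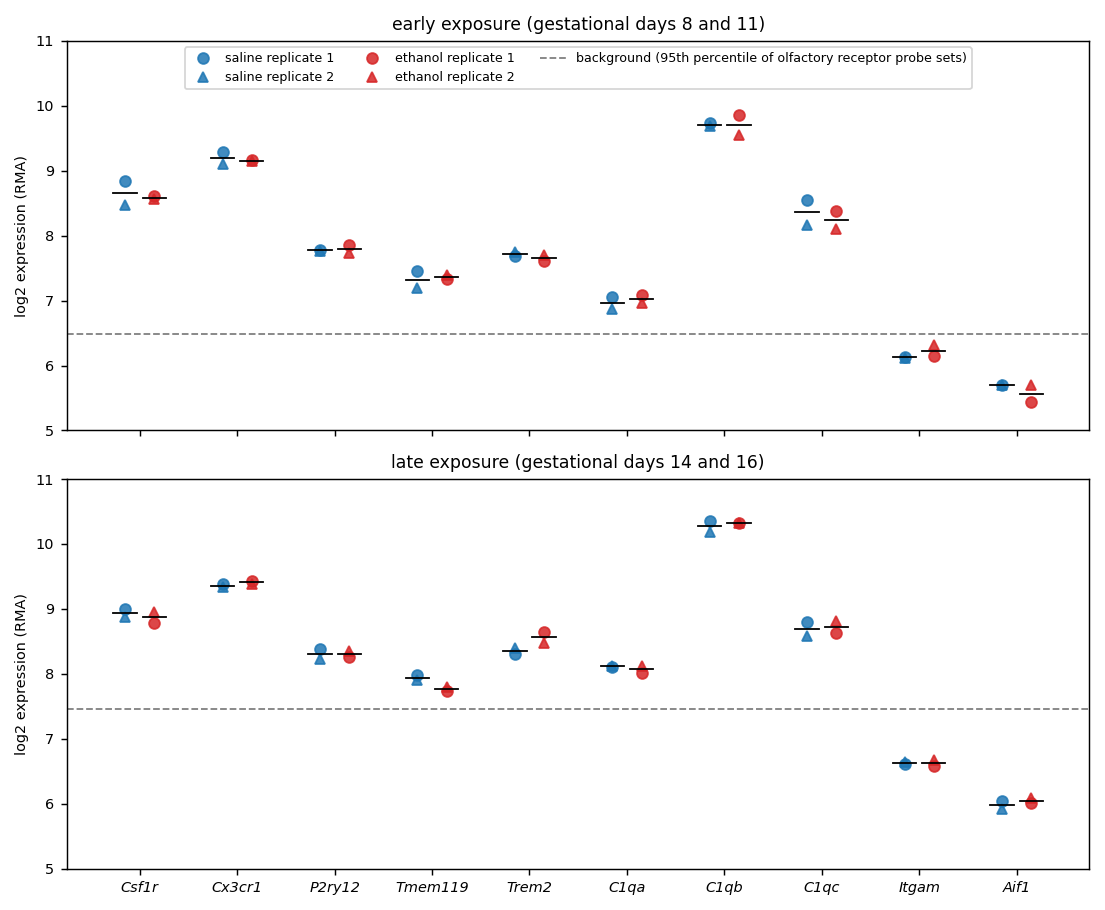
Log2 expression (y axis) of the 10 genes (x axis) on every array, early exposure above and late exposure below. Saline arrays are blue and ethanol arrays red, circles are replicate 1 and triangles replicate 2, short lines are group means, and the dashed line is the background level (6.49 early, 7.46 late). Itgam and Aif1 lie below that line in both timings.

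The receptors came first in the comparison. Csf1r is the receptor for the growth factors Csf1 and Il34. After early exposure its ethanol arrays read 8.60 and 8.56 and its saline arrays 8.84 and 8.47, a difference of -0.074 (SE 0.13, 95% confidence interval -0.37 to 0.22). The saline arrays enclosed both ethanol arrays. After late exposure the ethanol arrays were at 8.79 and 8.96 and the saline arrays at 8.99 and 8.87, a difference of -0.060 (-0.35 to 0.23), again with overlap.

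Cx3cr1 is the receptor for fractalkine, the neuronal ligand Cx3cl1. Early ethanol arrays read 9.16 and 9.15, between the early saline arrays at 9.29 and 9.11, and the difference was -0.046 (-0.24 to 0.15). Late ethanol arrays, at 9.44 and 9.39, both lay above the saline arrays at 9.38 and 9.34. That late difference was 0.053 (-0.15 to 0.25), a 1.04-fold ratio: the groups did not overlap, but the step between them was small.

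P2ry12 is a receptor for ADP through which microglial processes move toward injured cells. Its early readings were 7.86 and 7.72 with ethanol and 7.78 and 7.77 with saline, so the ethanol arrays lay on both sides of the saline arrays. The early difference was 0.021 (-0.19 to 0.23). The late readings were 8.26 and 8.35 with ethanol and 8.39 and 8.22 with saline, and the difference of -0.0018 (-0.21 to 0.21) was smaller than the gap between the arrays of either group; its sign turned under another scaling (0.021 with quantile normalization over all 8 arrays).

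Tmem119 encodes a membrane protein that sets resident microglia apart from other macrophages. Early ethanol arrays read 7.32 and 7.39 and saline arrays 7.45 and 7.19, a difference of 0.037 (-0.19 to 0.27). Late ethanol arrays read 7.74 and 7.80, both below the saline arrays at 7.98 and 7.91. The late difference of -0.17 (SE 0.10, interval -0.40 to 0.057) was the largest of the 10 genes in the lower direction, a 0.888-fold ratio, and its interval included 0. The late mean level of Tmem119 was only 0.40 log2 units above background. On late ethanol replicate 1 it read 7.74, where the background of that array was 7.70.

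Trem2 is a receptor for lipids and lipoproteins that signals through the adaptor Tyrobp. After early exposure the ethanol arrays read 7.61 and 7.70 and the saline arrays 7.69 and 7.74, which overlapped, with a difference of -0.057 (-0.26 to 0.15). After late exposure the ethanol arrays read 8.65 and 8.48 and the saline arrays 8.31 and 8.40, so both ethanol arrays were above both saline arrays. The difference was 0.21 (SE 0.091, interval 0.0046 to 0.42), a 1.16-fold ratio with bounds of 1.00 and 1.34, and it had the smallest p of the 10 genes (limma unadjusted p = 0.046, adjusted p = 1). Among the alternative settings that kept all arrays, the unadjusted p was under 0.05 with quantile normalization (limma, 0.023) and a crossed replicate block described below (limma, 0.033). It was not in the others, up to 0.16 in the unmoderated test. Of the 17 alternative settings, only median centring, quantile normalization and leaving out a late array changed the difference itself. Ethanol stayed above saline in each of these, and the other settings could not turn the direction. Single arrays moved the value: it was 0.13 without late ethanol replicate 1 and 0.30 without late ethanol replicate 2. Tyrobp, its adaptor, differed by 0.084 early (-0.13 to 0.30), and its late difference was -0.014 (-0.23 to 0.20), or 0.017 with quantile normalization.

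C1q is built from the products of C1qa, C1qb and C1qc, which assemble in equal numbers. C1qa read 7.09 and 6.97 with ethanol and 7.06 and 6.86 with saline after early exposure, a difference of 0.067 (-0.15 to 0.29). After late exposure it read 8.01 and 8.13 with ethanol and 8.11 and 8.12 with saline, a difference of -0.045 (-0.27 to 0.18). Both pairs of groups overlapped.

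C1qb read 3.22 log2 units above background early and 2.84 late. Its early readings were 9.85 and 9.56 with ethanol and 9.73 and 9.69 with saline, a difference of -0.0073 (-0.26 to 0.24). Late, it read 10.33 and 10.32 with ethanol and 10.35 and 10.19 with saline, a difference of 0.054 (-0.20 to 0.31). The saline arrays enclosed the ethanol arrays late, and the ethanol arrays enclosed the saline arrays early.

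C1qc had the widest interval of the 10 genes. Early ethanol arrays read 8.38 and 8.11 and early saline arrays 8.55 and 8.17, a difference of -0.11 (SE 0.15, interval -0.46 to 0.24). Late ethanol arrays read 8.64 and 8.81 and late saline arrays 8.81 and 8.59, a difference of 0.026 (-0.32 to 0.38). In both timings each group spread over more than the difference between the group means. Early, replicate 1 of each group was above replicate 2 for all 3 C1q genes, by 0.12, 0.29 and 0.28 with ethanol and by 0.20, 0.033 and 0.38 with saline for C1qa, C1qb and C1qc in turn.

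Itgam, known as CD11b, is the alpha chain of complement receptor 3. It was at background in both timings. Its early readings were 6.15 and 6.31 with ethanol and 6.13 and 6.12 with saline, which did not overlap, with a difference of 0.10 (-0.092 to 0.30). The late readings were 6.58 and 6.67 with ethanol and 6.61 and 6.64 with saline, and the difference of 0.000165 (-0.20 to 0.20) turned to -0.021 when each array was centred on its median and to -0.041 with quantile normalization. Itgam was also annotated on 3 probe sets shared with another gene, which were left out.

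Aif1, known as Iba1, is the protein most used to stain microglia, and its probe set too was at background. It read 5.43 and 5.69 with ethanol and 5.70 and 5.70 with saline after early exposure, a difference of -0.13 (-0.37 to 0.10). Ethanol replicate 2 lay just under the saline arrays, and the groups did not overlap. The difference turned on 1 array, with a value of -0.0036 without ethanol replicate 1 and -0.26 without ethanol replicate 2. Late readings were 6.01 and 6.09 with ethanol and 6.04 and 5.92 with saline, a difference of 0.074 (-0.16 to 0.31).

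**Figure D2:**
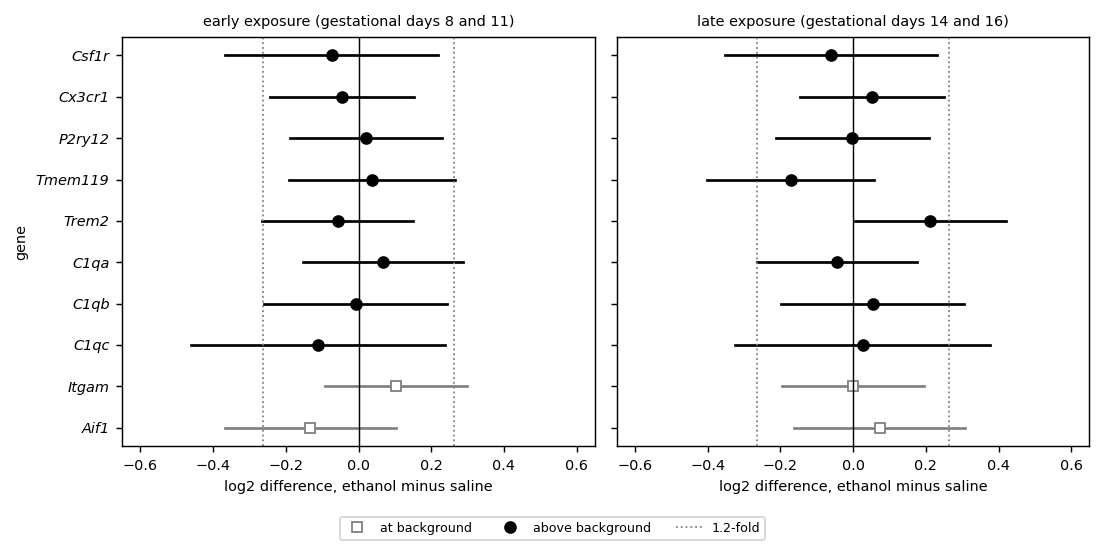
Log2 difference, ethanol minus saline (x axis), for each gene (y axis) in early exposure (left) and late exposure (right). Points are differences of group means (n = 2 arrays each), bars are 95% confidence intervals from the limma fit, filled circles are genes above background, open squares genes at background, and dotted lines mark 1.2-fold. The bars of all genes include 0 except that of Trem2 after late exposure, which starts at 0.0046.

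Across the 10 genes, 4 were higher and 6 lower with ethanol after early exposure, with a median difference of -0.027 beside -0.020 over all probe sets, of which 40.2% were higher. After late exposure 6 were higher and 4 lower, with a median of 0.013 beside -0.0067 over all probe sets, of which 47.3% were higher. The intervals limit the size of a difference in the readings only under limma's moderated variances. Under these, all 10 lay within 1.5-fold in either direction in both timings. In each timing 3 lay within 1.2-fold, Itgam among them late. For Itgam and Aif1, at background in both timings, the intervals say little about the transcript. The outermost bounds were 0.726-fold for C1qc and 1.23-fold for Itgam early, and 0.757-fold for Tmem119 and 1.34-fold for Trem2 late. Among the genes above background the highest early bound was 1.22-fold, for C1qa. Intervals reached 0.20 to 0.35 log2 units to each side of the difference. Without moderated variances intervals were wider. At the median over all probe sets they then reached 0.37 to each side early and 0.40 late, beside 0.23 in limma.

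At the median over the 10 genes, the arrays of a group differed from each other by more than the ethanol mean differed from the saline mean. After early exposure the median gap between the arrays of a group was 0.13 over the 10 genes, and the median size of the ethanol difference was 0.062; over all probe sets these were 0.099 and 0.058. In 0 of the 10 genes was the early ethanol difference larger than the wider gap between replicates, which was so for 16.0% of all probe sets. After late exposure the gap was 0.090 and the difference 0.054, and the difference was the larger in 3 of the 10 genes, Cx3cr1, Tmem119 and Trem2, against 16.7% of all probe sets. The ethanol arrays did not overlap the saline arrays in 2 of the 10 genes early (Aif1 lower and Itgam higher, both at background), where 26.4% of all probe sets were so separated, and in 3 of the 10 late (Cx3cr1 and Trem2 higher, Tmem119 lower), where 28.4% were.

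The direction of the gaps between replicates was read beside its share over all probe sets. Early saline replicate 1 was above replicate 2 in 8 of the 10 genes, by a median of 0.11, while 54.2% of all probe sets lay that way. Early ethanol replicate 1 was above replicate 2 in 6 genes, with a median gap of 0.029, where 54.8% of all probe sets lay that way. Late saline replicate 1 was above replicate 2 in 7 genes, by a median of 0.097, near the 67.3% of all probe sets that lay that way. Late ethanol replicate 1 was above replicate 2 in 3 genes, with a median of -0.085, where 52.5% of all probe sets lay that way. A wider list of 24 genes of resting (homeostatic) microglia, of which 22 were measured, had saline replicate 1 above replicate 2 in 16 early and 18 late. Leaving out early saline replicate 1 moved the median difference of the 10 genes from -0.027 to 0.062, and leaving out late saline replicate 1 moved it from 0.013 to 0.077, and over all arrays left out the median ran from -0.062 to 0.062 early and from -0.046 to 0.077 late, across 0 in both.

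**Figure D3:**
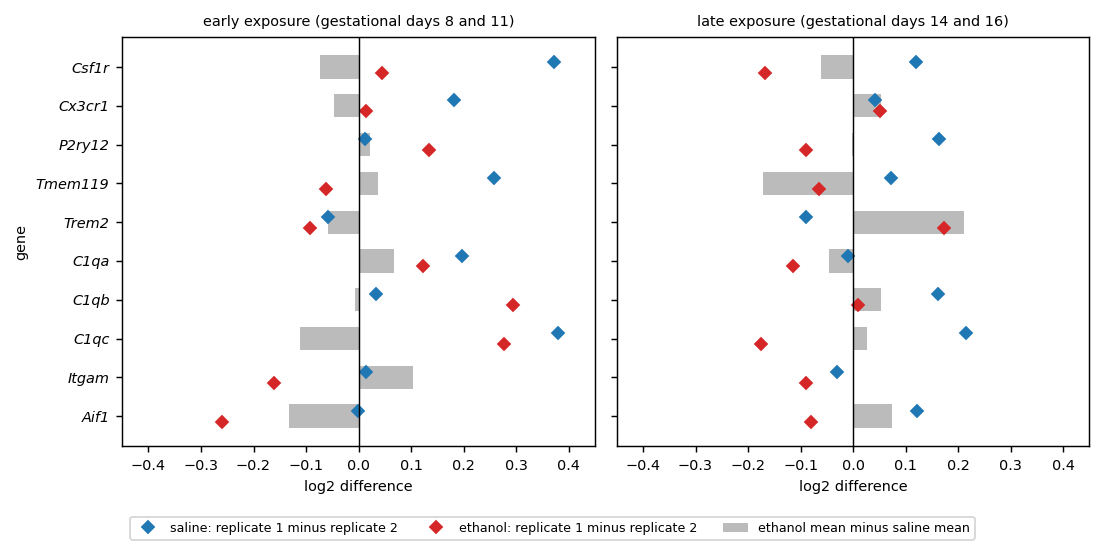
Gaps between the replicate arrays of a group beside the ethanol difference, for each gene (y axis), in log2 units (x axis), early exposure left and late exposure right. Diamonds are replicate 1 minus replicate 2 within saline (blue) and ethanol (red), and grey bars, which start at 0, are ethanol mean minus saline mean. In early exposure no bar is longer than the longer of its diamonds' distances from 0.

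Whether the ethanol difference itself changed with the timing of exposure was tested as the early difference minus the late difference. In limma, 0% of all probe sets passed an adjusted p of 0.05, and 2.06% (483) had an unadjusted p under 0.05, among them 0 of the 10 genes. Trem2 came nearest, with -0.27 (SE 0.13, interval -0.56 to 0.024, limma unadjusted p = 0.067), from -0.057 early and 0.21 late. Tmem119 followed with 0.21 (-0.12 to 0.53) and Aif1 with -0.21 (-0.54 to 0.13). The other 7 genes had an unadjusted p from 0.41 to 0.94.

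Ligands and partner receptors of microglia were read in the same whole brain RNA, which does not give the cell of origin. Csf1, a ligand of Csf1r, differed by 0.076 early (-0.22 to 0.37) and 0.068 late (-0.23 to 0.36), and Il34, the other ligand, by -0.053 early (-0.31 to 0.20) and -0.11 late (-0.36 to 0.14). Cx3cl1, the ligand of Cx3cr1, differed by 0.042 early (-0.25 to 0.33) and -0.079 late (-0.37 to 0.21). The intervals of all 3 ligands included 0 in both timings. Of 12 listed ligands and partner receptors, 7 were higher and 5 lower early and 6 were higher and 6 lower late, with 0 called; Itgb2, the partner chain of Itgam, differed by 0.052 early and, at background, by 0.0073 late, a value that turned to -0.014 and -0.030 under the other scalings. The smallest p values among those above background belonged to Icam1, an adhesion ligand of Itgb2 integrins, at -0.11 early (-0.30 to 0.091), Cd200, a neuronal brake on microglia, at 0.066 early (-0.13 to 0.27), and, late, Gas6, a ligand of the phagocytic receptors Axl and Mertk, at -0.18 (-0.42 to 0.064), and Il34.

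The wider lists of microglial and complement genes held 104 measured genes besides the 10. Of these, 0 passed after adjustment or at the study's thresholds in either timing, and 2 in each timing had an unadjusted p under 0.05 (1.92% each, beside 1.71% early and 2.49% late of all probe sets). Those 4, singled out after their values were seen, were all at background: Spi1, the macrophage factor, at -0.26 early (interval -0.44 to -0.087) and -0.061 late, H2-Ab1, an antigen-presenting class II chain, at -0.19 early (-0.37 to -0.0065), and, late, Tlr2, a receptor for bacterial lipoproteins, at 0.20 (0.018 to 0.38) and C4a, a C4 gene of the complement region, at 0.24 (0.0060 to 0.48). The late C4a difference was 0.10 without late ethanol replicate 1 and 0.38 without late ethanol replicate 2. Another 7 listed genes, among them C3, were not analysed here.

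Among the resting microglia genes 6 of 22 were higher and 16 lower early, with a median of -0.045. Late, 7 were higher and 15 lower, with a median of -0.058. The medians of all probe sets were -0.020 and -0.0067. Of the 22 genes, 20 were above background early and 18 late. Without the lowest 25% of probe sets by mean, the medians of the remaining probe sets were -0.020 early and -0.028 late. Above background, the smallest p values early belonged to Cd53, a tetraspanin of leukocytes, at -0.21 (interval -0.45 to 0.037), and Cd33, a sialic acid receptor, at -0.14 (-0.35 to 0.066). Late, they belonged to Olfml3, a secreted protein made by microglia, at -0.22 (-0.47 to 0.030), and Entpd1, which breaks down extracellular ATP, at -0.21 (-0.51 to 0.091). With 1 array left out the late values ranged from -0.32 to -0.12 for Olfml3 and from -0.39 to -0.023 for Entpd1, which was -0.023 without late saline replicate 1. None of the 22 was called.

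Of 7 measured transcription factors of microglia, 3 were higher and 4 lower early, and 5 were higher and 2 lower late (medians -0.026 and 0.016), with 0 called. Above background were Mef2c, which neurons also express, and Bhlhe41. Mef2c differed by -0.026 early (-0.29 to 0.23) and 0.051 late (-0.21 to 0.31), and Bhlhe41 by 0.085 early (-0.28 to 0.45) and 0.016 late (-0.35 to 0.38), the last value turning to -0.0058 with median centring. Of 25 genes of activated microglia and inflammation, 6 were above background early and 4 late. In all, 9 were higher and 16 lower early, and 18 were higher and 7 lower late (medians -0.0071 and 0.036), with 0 called. Among those above background the medians were -0.0075 early and -0.030 late. Of all probe sets, 40.2% were higher early and 47.3% late. Late, that share was lower without the lowest 25% of probe sets by mean (6802 of 17557), so dim probe sets were higher more often. Apoe, a lipid carrier and ligand of Trem2 made mostly by astrocytes, read 12.01 and 11.98 with ethanol and 11.88 and 11.87 with saline early, a difference of 0.12 (-0.067 to 0.31), and differed by -0.074 late (-0.26 to 0.11). Lpl, a lipase, differed by -0.14 early (-0.45 to 0.16), and H2-Eb1, a class II chain, by 0.065 late (-0.15 to 0.28).

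Downstream of C1q, 18 cascade genes were measured and 3 of them were above background early and 1 late. Early, 8 were higher and 10 lower with a median of -0.011, beside 40.2% of all probe sets higher. Late, 15 were higher and 3 lower with a median of 0.078, beside 47.3% of all probe sets higher. That share depended on level: 11071 of all 23410 probe sets were higher late, but 6802 of the 17557 left without the lowest 25% by mean. The dimmest probe sets were thus higher more often than 47.3%, and the cascade genes were mostly dim. Of the cascade genes 0 were called in either timing. The mean late level of the cascade genes was 6.30 on ethanol replicate 1 and 6.17 on ethanol replicate 2, beside 6.17 and 6.14 on the saline arrays. The receptor percentile that sets the background was 7.70 on late ethanol replicate 1 and 7.28 to 7.50 on the other late arrays, and its part in these dim readings was not tested. C1ra and C1s1, which encode the C1r and C1s proteases bound to C1q, were at background throughout: C1ra differed by 0.035 early (-0.31 to 0.38) and 0.24 late (-0.10 to 0.59; 0.076 to 0.41 with 1 array left out), and C1s1 by -0.13 early (-0.35 to 0.092) and -0.035 late (-0.26 to 0.19). C4b, a C4 of the kind that C1s cleaves, read 7.22 and 7.20 with ethanol and 7.10 and 7.16 with saline early, a difference of 0.081 (-0.090 to 0.25), and at background late it differed by 0.099 (-0.073 to 0.27). Masp1, a lectin pathway protease, differed by -0.089 early (-0.27 to 0.091), and Cfp, or properdin, by 0.039 late (-0.25 to 0.32).

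Of 20 complement receptors and regulators, 10 were higher and 10 lower early (median -0.0042), and 8 were higher and 12 lower late (median -0.051), with 0 called. Serping1, the inhibitor of the C1 proteases, differed by -0.20 early (-0.49 to 0.10), and Cr1l, a membrane inhibitor of C3 cleavage in rodents, by -0.18 early (-0.47 to 0.11). Late, Calr, a chaperone that also serves as a surface receptor for C1q, read 12.14 and 12.07 with ethanol and 12.31 and 12.35 with saline, a difference of -0.23 (-0.48 to 0.027). Nptx2, a synaptic pentraxin, had late means of 8.83 (SD 0.063, n = 2) with ethanol and 9.05 (SD 0.066, n = 2) with saline, a difference of -0.22 (-0.46 to 0.023). For both genes the late ethanol arrays lay below the late saline arrays, and neither passed after adjustment.

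Markers of other cells were read beside these values. Of 10 markers of border macrophages and 8 measured markers of blood leukocytes, 0 were above background in either timing. Over all probe sets, 40.2% were higher with ethanol early and 47.3% late. Without the lowest 25% of probe sets by mean, 6802 of 17557 were higher late, so the dimmest were higher more often than 47.3%. Late, 8 of the 8 blood leukocyte markers, all at background, were higher with ethanol (median 0.059). Their mean levels were 6.18 and 6.07 with ethanol and 6.06 and 6.04 with saline. The receptor percentile was 7.70 on late ethanol replicate 1 and 7.28 on replicate 2, and its part in these readings was not tested. Early, 4 of the 8 leukocyte markers were higher. Endothelial and mural markers were lower with ethanol in 10 of 10 genes early (median -0.11), with mean levels of 7.91 and 7.88 with ethanol and 7.97 and 8.04 with saline, and 4 of 10 were higher late (median -0.079). Oligodendrocyte markers were higher in 9 of 9 genes early (median 0.14; mean levels 10.74 and 10.62 with ethanol, 10.64 and 10.46 with saline). They were higher in 0 of 9 late (median -0.12; 11.03 and 11.08 with ethanol, 11.22 and 11.13 with saline). Neuronal markers had medians of 0.045 and -0.039 and astrocyte markers of -0.015 and -0.074. The list of olfactory bulb genes was lower in 10 of 10 early (median -0.52; mean levels 7.18 and 7.44 with ethanol, 7.71 and 7.84 with saline), and its late median was -0.011. The part of these differences in the values of the microglia and complement genes was not tested.

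**Figure D4:**
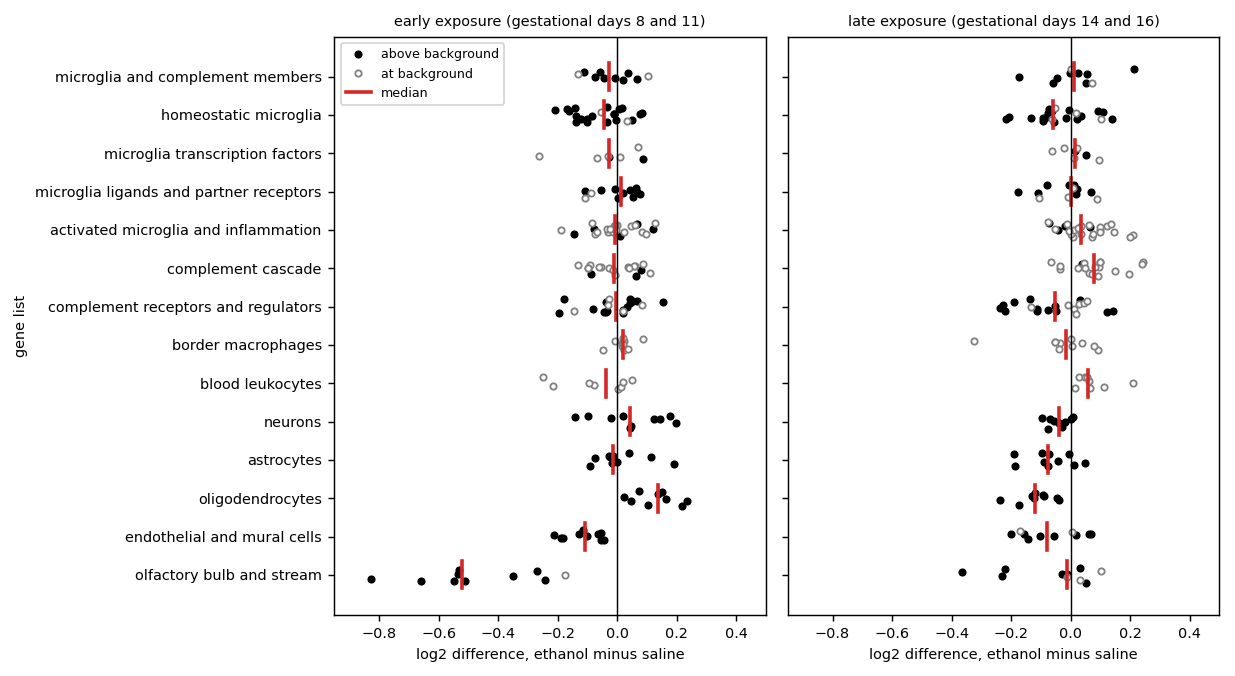
Log2 difference, ethanol minus saline (x axis), of the genes of each list (y axis), early exposure left and late exposure right. Each point is 1 gene (filled above background, open at background) and red bars are medians. The 10 microglia and complement genes spread around 0 (medians -0.027 and 0.013), while the olfactory bulb list lies to the left in early exposure (median -0.52).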

How the data were processed

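RNA of 3 male mice was pooled on each of 8 Affymetrix Mouse Gene 1.0 ST arrays (4 groups of 2 arrays). The deposited values are log2 expression: the authors used RMA, GC adjustment and quantile normalization to summarize probe sets, in Partek Genomics Suite (the submitters' processing notes name version 6.6). The same steps are assumed for the late arrays, whose medians differ from the early ones as if each timing had been normalized apart. The probe annotation's build and version were not given in the sources used here; probe sets carry no coordinates. Promoter sequences are RefSeq's, of GRCm38.p6.

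Of 35556 probe sets, 12146 (34.2%) without a symbol were left out. Groups came from the labels, and 0 columns belonged to other samples. A mean for each of the 4 groups was fitted over all 8 arrays in limma 3.58.1 (R 4.3.3) with moderated variances, with Benjamini-Hochberg adjustment over 23410 probe sets (threshold 0.05). The script was tested on simulated data. At background means that a gene's mean over the 4 arrays of a timing was not above the mean over those arrays of the 95th percentile of receptor probe sets; for a single array, the percentile of that array was used. The number of arrays limits the precision.

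The 10 genes and all lists were chosen with earlier results of these data known. Named beside the 10 genes were, from each microglial or complement list, the 2 genes above background with the smallest unadjusted p in each timing, and the ligands, partners and early complement genes Csf1, Il34, Cx3cl1, Tyrobp, Itgb2, C3, C4b, C1ra and C1s1; others were named after their values were seen. Of 9 red blood cell markers 2 had a probe set of 1 symbol, and that list is not used (medians -0.042 early and 0.060 late). Alternatives were an unmoderated test, which equals the analysis of variance in the study's methods for 2 groups, a fit to the 4 arrays of a timing, a replicate block, median centring, quantile normalization over 8 arrays, removal of the lowest 25% of probe sets, every probe set, an intensity trend and leaving out each array in turn, which leaves 1 array assumed to vary like the other groups. A block with the late numbers crossed was added after the data were seen. Python 3.11.15 with matplotlib 3.10.9 drew the figures.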

Additional observations from a re-analysis of the deposited data

Results flagged for a closer look

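In 6 of the 104 genes of the wider microglial and complement lists, or 5.77%, both ethanol arrays lay below both saline arrays after early exposure and above them after late exposure. Of all 23410 probe sets 631 did so (2.70%). The opposite order was seen in 0 of the 104 genes and 267 of all probe sets (1.14%), and 0 of the 10 genes showed either. None of these differences between timings passed after adjustment (limma, adjusted p = 1.0 for each).

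Cd33, a sialic acid receptor of microglia, read 8.61 and 8.47 with ethanol and 8.67 and 8.69 with saline early, and 9.09 and 9.07 with ethanol and 9.03 and 8.86 with saline late. Its early difference minus its late difference was -0.28 (limma unadjusted p = 0.058).

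C4a read 5.26 and 5.26 with ethanol and 5.33 and 5.37 with saline early, and 6.06 and 5.78 with ethanol and 5.73 and 5.63 with saline late, at background in both timings. Its difference between timings was -0.33 (limma unadjusted p = 0.051).

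Tlr2 read 5.74 and 5.84 with ethanol and 5.85 and 5.87 with saline early, and 6.57 and 6.60 with ethanol and 6.44 and 6.34 with saline late, also at background, with a difference between timings of -0.27 (limma unadjusted p = 0.043). Masp1 read 6.61 and 6.66 with ethanol and 6.74 and 6.71 with saline early, and, at background, 7.01 and 7.04 with ethanol and 6.99 and 6.88 with saline late, with a difference between timings of -0.18 (limma unadjusted p = 0.14).

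Tgfbr1, a receptor for TGF-beta, read 8.14 and 8.14 with ethanol and 8.31 and 8.17 with saline early, and 8.69 and 8.65 with ethanol and 8.64 and 8.51 with saline late, with a difference between timings of -0.19 (limma unadjusted p = 0.15). Slco2b1, an organic anion transporter, read 6.95 and 6.97 with ethanol and a mean of 6.99 with saline early, and, at background, 7.22 and 7.25 with ethanol and 7.21 and 7.07 with saline late, with a difference between timings of -0.14 (limma unadjusted p = 0.26).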

How the results depend on the processing

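Under the settings that kept all arrays, direction and side of the adjusted threshold were kept in 253 of 257 values for the 10 genes. For the other named genes they were kept in 409 of 413, and the lowest limma adjusted p was 0.951. Only median centring and quantile normalization change a difference itself, so the other settings could not turn a direction. The 8 exceptions were small late values or a difference between timings: quantile normalization over 8 arrays gave P2ry12 0.021, Itgam -0.041, Tyrobp 0.017 and Itgb2 -0.030 late and P2ry12 -0.0010 early minus late, and centring on the array median gave Itgam -0.021, Bhlhe41 -0.0058 and Itgb2 -0.014 late. With 1 array left out, 30 of 240 values of the 10 genes and 24 of 376 of the others turned sign. These totals include differences of a timing with an array of the other timing left out, which could not change. The share that turned among values free to move was therefore larger. For genes that turned, the early values ranged over Cx3cr1 -0.14 to 0.045, P2ry12 -0.046 to 0.088, Tmem119 -0.092 to 0.17, C1qa -0.031 to 0.17, C1qb -0.15 to 0.14, C1qc -0.30 to 0.079, Csf1r -0.26 to 0.11, Tyrobp -0.012 to 0.18, Mef2c -0.12 to 0.068, Bhlhe41 -0.11 to 0.28, Csf1 -0.11 to 0.27, Il34 -0.13 to 0.027, Cx3cl1 -0.11 to 0.19, Cd200 -0.0012 to 0.13, Itgb2 -0.015 to 0.12, Lpl -0.35 to 0.063, C1ra -0.11 to 0.18. Their late ranges were P2ry12 -0.084 to 0.080, C1qa -0.10 to 0.013, C1qb -0.027 to 0.14, C1qc -0.082 to 0.13, Csf1r -0.14 to 0.024, Itgam -0.044 to 0.045, Mef2c -0.044 to 0.15, Bhlhe41 -0.13 to 0.17, Csf1 -0.015 to 0.15, Il34 -0.23 to 0.011, Itgb2 -0.055 to 0.069, C1s1 -0.14 to 0.067, Cfp -0.093 to 0.17. For the early minus late difference they were P2ry12 -0.059 to 0.10, C1qb -0.21 to 0.085, C1qc -0.33 to 0.053, Csf1r -0.20 to 0.17. The cause was not tested.

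The median difference of the 10 genes ranged from -0.062 to 0.062 early and from -0.046 to 0.077 late with 1 array left out; the highest values were those without saline replicate 1 of the timing. After adjustment the count of all probe sets ranged over 0 to 13 early and 0 to 5 early minus late (13 and 5 without early ethanol replicate 2), and was 0 throughout late. At the study's thresholds the counts were 216 early and 272 late, and with 1 array left out they ranged from 210 to 781 and from 242 to 1750. Without early ethanol replicate 1 or 2 the early count was 408 or 564, and without early saline replicate 1 or 2 it was 426 or 781. Without late ethanol replicate 2 the late count was 1750, and without late saline replicate 1 it was 875. The unmoderated test gave 60 early and 58 late. With every probe set they were 669 (342 higher, 327 lower) and 674 (377 higher, 297 lower), beside 65 higher and 151 lower early and 103 higher and 169 lower late in the probe sets with a symbol.

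Replicate numbers were shared by the groups of a timing, but the labels do not say that a number marks a litter, batch or day. Over all probe sets the gap between ethanol replicates 1 and 2 correlated with that between saline replicates at 0.466 early and -0.464 late. With a replicate block the counts at the study's thresholds were 229 early and 354 late, with 0 probe sets called after adjustment in either, and the differences of the 10 genes were the same values; Trem2 late had an unadjusted limma p of 0.070. With the late numbers crossed in the block, which was chosen after seeing the data, the counts were 564 and 519.

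Signal over background limits Itgam, Aif1 and most cascade genes, for which a difference at these readings says little about the transcript. Each gene of the 10 had 1 probe set of 1 symbol, so the alternative of another probe set gave no value, and removing the lowest 25% of probe sets left 9 of the 10 genes.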
